A study of Rattus norvegicus with 21 samples.

Results

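The 45 genes described here are cytochrome P450 genes read in rat liver by a probe set of their own. They lie outside the inducible Cyp1 and Cyp3a families and outside Cyp4a1, Cyp2c11, Cyp7a1, Cyp8b1, Cyp27a1 and Cyp51. They were chosen by a rule on gene names, which was set with earlier results of these data known. A probe set counted if the platform annotation gave it 1 gene symbol made of Cyp and a digit, and 1 probe set, that with the highest mean, stood for each gene. Of 58 P450 genes found in this way, 13 belonged to the families and genes left out, and the array held 14218 genes with such a probe set in all. The 45 genes had 52 probe sets, and 6 genes had more than 1. A further 7 probe sets carried several symbols, at least 1 of them a P450, and were not used. Cyp2b1, Cyp2b2, Cyp4a2, Cyp2r1 and Cyp24a1 are not among the 45, as no probe set carried their symbol alone. Nothing is said here of their response.

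Liver RNA of male rats was measured with 1 Affymetrix array per animal in a pair of separate studies with 3 animals in each group. In the PBO study, Sprague-Dawley rats were given piperonyl butoxide (PBO), an insecticide synergist that inhibits P450 enzymes, by mouth for 7 days at 500, 1000 or 1500 mg/kg, and controls were given the vehicle, 0.5% methyl cellulose. In the DAM study, Fischer344 rats ate a diet with 2% or 5% dammar resin (DAM), a plant resin used in foods, equivalent to 800 or 2000 mg/kg, for 28 days, and controls ate the basal diet. PBO livers were kept in RNAlater and DAM livers were frozen in liquid nitrogen, and the labels used here give no age for any group.

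Cytochrome P450 enzymes are haem proteins of the endoplasmic reticulum and of mitochondria that insert an oxygen atom into their substrates with electrons from NADPH. In the endoplasmic reticulum these are passed on by P450 reductase. Members of the Cyp2 family in hepatocytes oxidise drugs, solvents and steroids, and in rats several of them differ strongly between males and females under the pattern of growth hormone release. Members of Cyp2j, Cyp2u and Cyp4 act on fatty acids and eicosanoids, Cyp26 enzymes break down retinoic acid, and Cyp11, Cyp17, Cyp19 and Cyp21 enzymes make steroid hormones, largely outside the liver.

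The arrays were on a common scale, with a trimmed mean of 500.2 to 500.3 on all 21, but the median signal was 94.3 to 114.1 on PBO arrays and 76.0 to 86.2 on DAM arrays. The labelled tissue was borne out by its markers: none of 7 hepatocyte markers was below 14998 on any array, and none of 5 adrenal and kidney markers exceeded 79.6. No pair of arrays was identical. One PBO animal, replicate 3 at 1500 mg/kg, stood apart from its group, with a root mean square deviation of 0.495 (log2) from its group mean against 0.368 or less on each of the other arrays. Among the 35 P450 genes tested in the PBO study it had the lowest signal of all 12 animals for 16 and the highest for 5. In these whole-liver samples, fewer cells of a type and less RNA per cell cannot be told apart, and signals of different probe sets are not comparable with each other.

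Sequence upstream of 36 of the 45 genes was at hand from RefSeq (build GRCr8), 250 bases before each annotated start. Cyp2a2, Cyp2c6v1, Cyp4f4, Cyp4f17, Cyp4v3, Cyp7b1, Cyp11b1, Cyp17a1 and Cyp19a1 are named only. Cyp26a1 and Cyp2j4 are shown because theirs were the only signals that rose at the highest dose in both studies. The Cyp26a1 window lies at chr1:244883572-244883821 on the plus strand, and its capitals mark a direct repeat of the kind bound by retinoic acid receptors, read on the opposite strand. The Cyp2j4 window lies at chr5:116323043-116323292 on the minus strand.
Cyp26a1: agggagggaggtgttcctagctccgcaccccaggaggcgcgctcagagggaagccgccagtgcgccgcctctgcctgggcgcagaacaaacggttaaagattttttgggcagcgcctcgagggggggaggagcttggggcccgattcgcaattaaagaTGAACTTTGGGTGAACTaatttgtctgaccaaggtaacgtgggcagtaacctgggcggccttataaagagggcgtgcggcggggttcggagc
Cyp2j4: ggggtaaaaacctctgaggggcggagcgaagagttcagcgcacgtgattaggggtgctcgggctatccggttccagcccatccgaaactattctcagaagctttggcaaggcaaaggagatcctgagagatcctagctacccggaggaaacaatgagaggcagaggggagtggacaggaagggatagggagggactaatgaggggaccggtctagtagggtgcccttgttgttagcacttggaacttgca
Every motif was searched on both strands, this repeat as a pair of AGTTCA half-sites with 5 bases between them. It lay 92 to 76 bases before the Cyp26a1 start as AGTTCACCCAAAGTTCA, and 3 of 27457 genes with such a window held it (0.0109%), 1 of them among the 36. The Cyp2j4 window held none of the 6 motifs searched.

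For the sex-dependent Cyp2c12 and Cyp2c13, the last 150 bases before the start are shown because they share the core of HPF-1, an element of Cyp2c genes known to be bound by HNF4A and searched as CAAAGT, any base, CA. Both lie on the minus strand, Cyp2c12 at chr1:248677035-248677184 and Cyp2c13 at chr1:248787189-248787338, and capitals mark the core.
Cyp2c12: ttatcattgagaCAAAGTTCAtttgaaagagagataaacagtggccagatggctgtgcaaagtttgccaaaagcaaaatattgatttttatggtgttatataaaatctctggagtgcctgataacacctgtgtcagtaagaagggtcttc
Cyp2c13: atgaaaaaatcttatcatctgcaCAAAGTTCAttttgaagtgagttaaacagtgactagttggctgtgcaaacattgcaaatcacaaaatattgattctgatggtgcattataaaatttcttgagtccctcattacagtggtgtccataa
The core lay 138 to 130 bases before the Cyp2c12 start and 127 to 119 bases before that of Cyp2c13. It was present upstream of 1.18% of all genes and of 4 of the 36, the others being Cyp2d2 and Cyp26a1, where it overlaps the repeat above. Of the other motifs, a pair of AGTTCA half-sites with 4 bases between them (in 0.0146% of genes), a pair of AGGTCA half-sites with 1 base between them (0.0583%) and an antioxidant response core (TGAC, 3 bases, GCA, in 2.63%) were found upstream of 0 of the 36. A dioxin response core (T, any base, GCGTG, in 4.56%) was found upstream of Cyp26b1 alone among them. A match describes letters in this window and is not evidence of binding.

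Dosing changed a minority of these P450s: Cyp2j4 and Cyp26a1 rose with both compounds, Cyp2t1 fell with both, and Cyp4f1 and Cyp4f6 fell with PBO. Changes are differences of mean log2(signal + 16) between dosed and control animals, ± the standard error of the limma fit, with 3 animals per group; the added 16 understates changes of dim genes. A gene was called when its p-value, adjusted over all 18625 probe sets tested, was under 0.05. After 1500 mg/kg PBO, 2 of 35 genes tested rose and 7 fell, where 8.08% of all probe sets tested rose and 9.26% fell. Together that was 25.7% of the genes against a background of 17.3%. With a filter at the 60th percentile of mean signal, 9 genes were called and the background was 26.4%. With so few genes, the share of P450s is not told apart from that of all probe sets. Without replicate 3 at 1500 mg/kg, 2 rose and 10 fell at that dose, where 17.1% of all probe sets were called. At 1000 mg/kg 1 rose and 2 fell (background 1.88% up, 1.23% down, 3.12% in all). At 500 mg/kg 1 rose and 0 fell (0.349% up, 0.129% down, 0.478% in all). At that dose 4 of the 35 genes had an unadjusted p under 0.05, as did 1858 of all 18625 probe sets tested. After 2000 mg/kg DAM, 4 of 32 genes tested rose and 2 fell (background 6.22% up, 6.11% down), or 18.8% against 12.3% in all. These shares are not told apart with 32 genes. After 800 mg/kg 1 rose and 0 fell (2.16% up, 1.62% down, 3.79% in all). The median change of the genes tested was -0.17 at 1500 mg/kg PBO, against -0.08 over all probe sets, and 0.03 at 2000 mg/kg DAM, against -0.04.

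**Figure D1:**
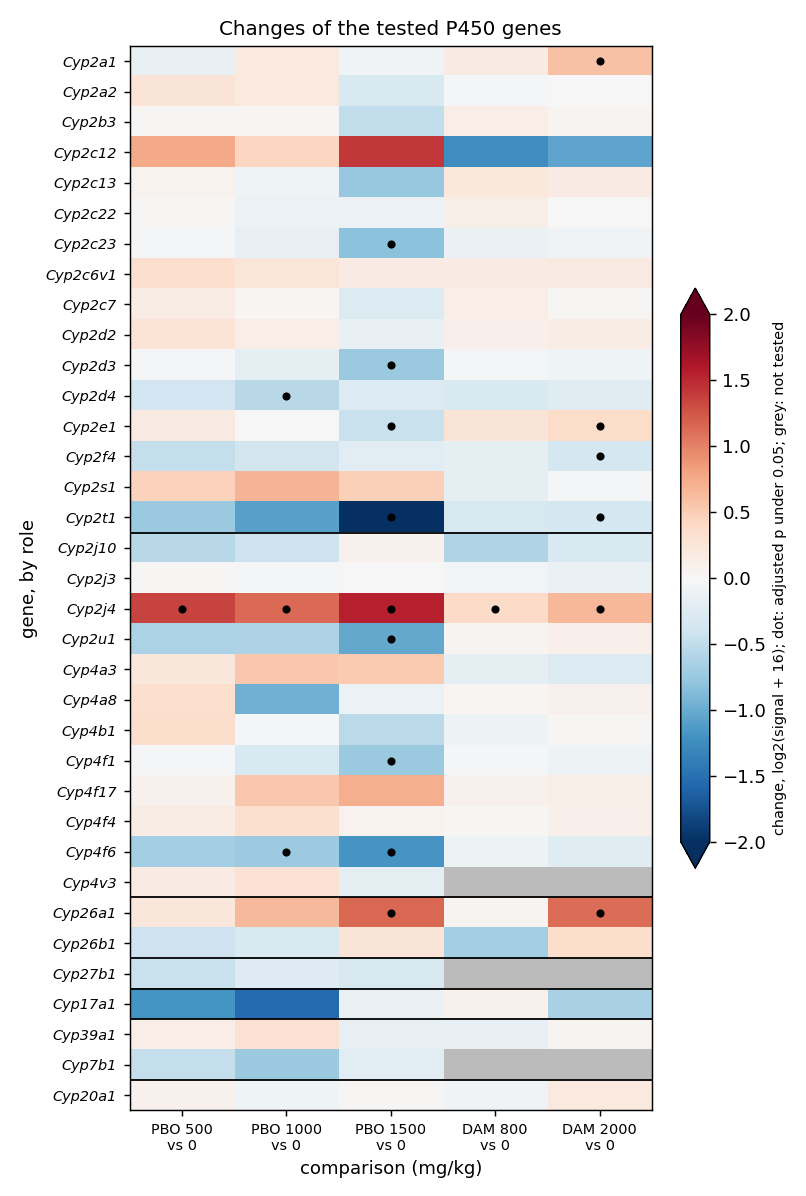
Change of each P450 gene tested, as the difference of mean log2(signal + 16) from the control of its own study, with genes grouped by role from xenobiotic at the top to oxysterol at the bottom. Dots mark an adjusted p under 0.05 and grey cells were not tested. Cyp2j4 has a dot in all 5 dosed groups and Cyp26a1 at the highest dose of each study.

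The 3 animals of a dosed group lay wholly above or below their 3 controls for more genes than were called. This held for 12 of 35 at 1500 mg/kg PBO (background 33.3%), 18 of 35 at 1000 mg/kg (27.5%) and 11 of 35 at 500 mg/kg (20.1%), and for 9 of 32 at 2000 mg/kg DAM (30.8%) and 7 of 32 at 800 mg/kg (20.9%). Markers of other cells moved with the highest doses. Of 13 markers of other liver cell types tested at 1500 mg/kg PBO, the epithelial marker Epcam rose (2.06 ± 0.13) and the Kupffer marker Clec4f (-1.61 ± 0.39), the endothelial marker Kdr (-0.85 ± 0.10) and the stellate marker Lrat (-1.41 ± 0.38) fell. The other stellate markers Dcn (0.41), Des (0.10) and Col1a1 (0.52) had positive differences without a call. The bile duct marker Krt19 had a negative one (-0.31), also without a call. Replicate 3 had the lowest of both Clec4f (3236, 1946 and 729.9 at 1500 mg/kg) and Lrat (561, 454 and 135), and without it their changes were -1.02 (adjusted p = 0.00737) and -0.81 (0.0104). Dcn was called as higher in the limma fit without that animal (0.70, adjusted p = 0.0216). The summed signal of 18 such markers of other cells was 12316 to 18232 at 1500 mg/kg and 18544 to 20390.3 in vehicle animals. Such a sum mostly follows the brightest probe sets, here Clec4f, Kdr and the endothelial marker Lyve1, and is no measure of cell numbers. The hepatocyte markers Cps1 (-0.78 ± 0.12) and Ass1 (-0.56 ± 0.12) fell too, and the others of the 7 were not called. Ttr (-0.27), Serpina1 (-0.30) and Hp (-0.15) had negative differences, and Alb (0.06) and Apoa1 (0.15) positive ones. The 7 hepatocyte markers summed to 240331 to 300194 at 1500 mg/kg and 272381 to 345569 in vehicle animals. At 2000 mg/kg DAM, Epcam (1.37 ± 0.14) and the hepatocyte marker Apoa1 (0.62 ± 0.09) rose, while the macrophage marker Cd68 (-0.78 ± 0.11) and Lrat (-0.63 ± 0.12) fell, of 14 markers of other cells tested. Apoa1 was the only 1 of 7 hepatocyte markers called there. The means of Alb, Ttr, Serpina1 and Hp were higher than on basal diet and those of Cps1 and Ass1 lower. Ass1 had 25004, 22536 and 19968 at 2000 mg/kg and 25017, 29350 and 27451 on basal diet. Krt19 had 124, 166 and 183 against 133, 183 and 286, without a call. The summed signal of the other cells was 11782 to 15429.7 at 2000 mg/kg DAM and 15606 to 17312 on basal diet. That of the hepatocyte markers was 221275 to 265370 at 2000 mg/kg DAM and 198294 to 252195 on basal diet. Their part in the P450 results was not tested.

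Among the 13 genes of fatty acid and eicosanoid metabolism, Cyp2j4 rose in all 5 dosed groups and the Cyp4f genes Cyp4f1 and Cyp4f6 fell with PBO. Rat Cyp2j enzymes epoxidise arachidonic acid. Cyp2j4 signals were 2015, 3936 and 2572 in vehicle animals, 7520.4, 7182 and 6422 at 500 mg/kg, 5975, 6119.5 and 5857 at 1000 mg/kg and 6996, 6256 and 11867 at 1500 mg/kg PBO. All 9 dosed animals lay above the highest control. The lowest dosed animals were those at 1000 mg/kg, and the highest was replicate 3 at 1500 mg/kg. The change was 1.36 ± 0.24 at 500 mg/kg (adjusted p = 0.0247), 1.13 ± 0.24 at 1000 mg/kg (0.0243) and 1.55 ± 0.24 at 1500 mg/kg (0.000895), the last a 2.93-fold rise on this scale. Without replicate 3 at 1500 mg/kg the changes at 500, 1000 and 1500 mg/kg were 1.36, 1.13 and 1.27, with adjusted p of 0.00126, 0.00174 and 0.00068. The 500 mg/kg call was lost without vehicle replicate 1 (0.124) or 3 (0.106) or any animal at that dose (0.115, 0.115 and 0.061), and the 1000 mg/kg call without vehicle replicate 1 (0.102) or 3 (0.095) or any animal at that dose (0.0833, 0.0778 and 0.0772). The call at 1500 mg/kg was kept with each of the 12 animals left out in turn.

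On DAM, Cyp2j4 had signals of 2764, 2801 and 2908 on basal diet, 4077, 3277 and 3769 at 800 mg/kg and 4438, 4496 and 4545 at 2000 mg/kg. The 3 groups did not overlap, and replicates of the control and of the 2000 mg/kg group differed little among themselves. The change was 0.39 ± 0.08 at 800 mg/kg (adjusted p = 0.0192) and 0.67 ± 0.08 at 2000 mg/kg (0.000184), where the rise was 1.59-fold. The 800 mg/kg call was lost without basal-diet replicate 1 (0.0621) or 2 (0.0558) or without replicate 1 (0.0802) or 3 (0.0764) of the dosed group, and the 2000 mg/kg call was kept in each such fit. Its close relatives had no call. Cyp2j3 had 3598, 4123 and 4397 in vehicle animals, 3756, 5039 and 3658 at 500 mg/kg, 3248, 4907 and 3927 at 1000 mg/kg and 5255, 4067 and 3023 at 1500 mg/kg PBO. DAM animals had 5696, 5262 and 4951 on basal diet, 4912, 4868 and 5472 at 800 mg/kg and 4936, 4299 and 5301 at 2000 mg/kg, and all dosed groups overlapped their controls. Cyp2j3 differed from controls by -0.0044 ± 0.20 at 1500 mg/kg PBO and -0.13 ± 0.09 at 2000 mg/kg DAM, and Cyp2j10 by 0.09 ± 0.37 and -0.31 ± 0.23, none of them called in any dosed group.

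**Figure D2:**
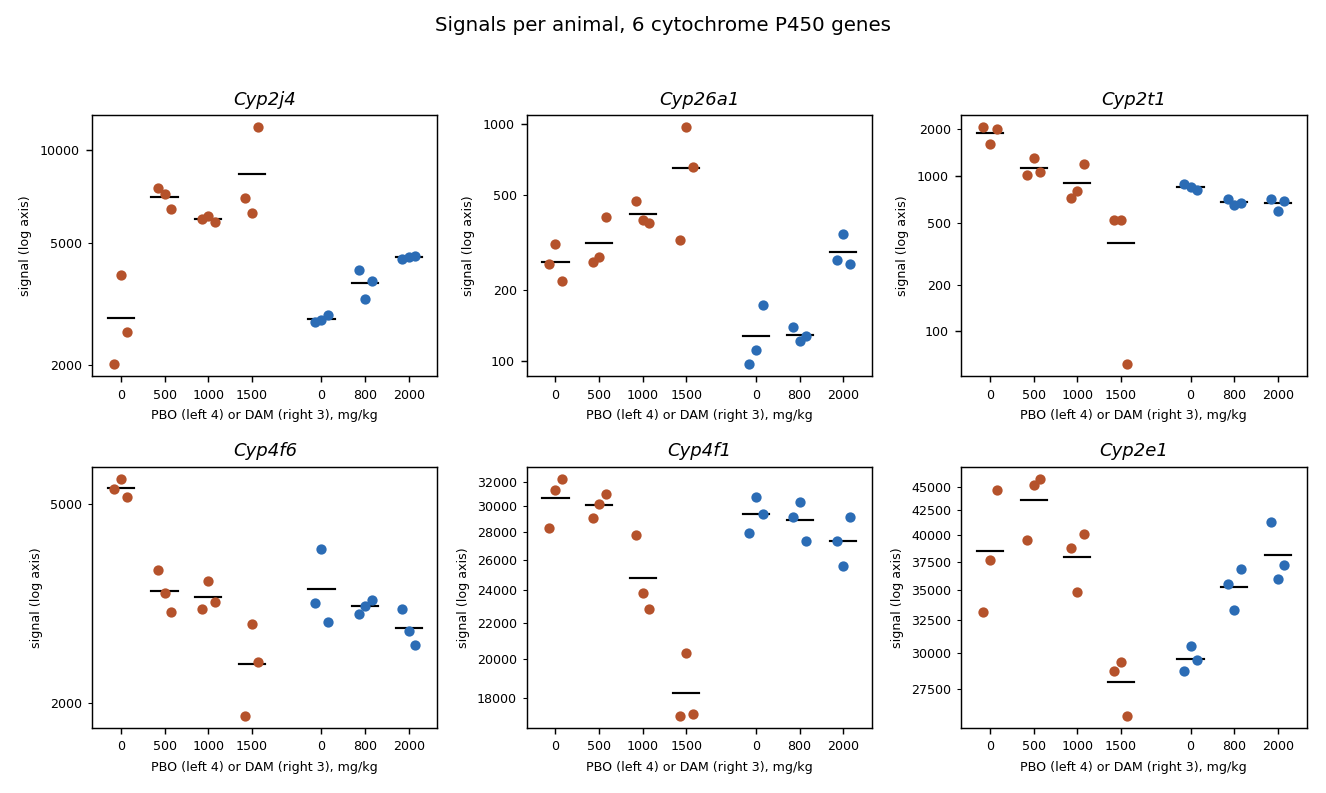
Signal of each animal (points, log axis) and the group mean (bar) for 6 P450 genes over the 4 dose groups of the PBO study (left, brown) and the 3 of the DAM study (right, blue), 3 animals per group. All 9 PBO-dosed animals exceed the vehicle animals for Cyp2j4 and fall below them for Cyp4f6, and Cyp2e1 moves in opposite directions at the highest doses.

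Cyp4f enzymes hydroxylate leukotrienes, arachidonic acid and other long-chain fatty acids. Cyp4f6 signals were 5375, 5634 and 5166 in vehicle animals, 3702, 3326 and 3044 at 500 mg/kg, 3088, 3512 and 3189 at 1000 mg/kg and 1888, 2884 and 2424 at 1500 mg/kg PBO. Every dosed animal was below every vehicle animal, and those at 1500 mg/kg were below all others. Cyp4f6 fell at 1000 mg/kg (-0.72 ± 0.14, adjusted p = 0.0155) and at 1500 mg/kg (-1.18 ± 0.14, 0.000146). At 500 mg/kg the change of -0.68 ± 0.14 was not called (0.0635), but was without replicate 1, 2 or 3 at 1500 mg/kg (0.0217, 0.0261 and 0.0201). The 1000 mg/kg call was lost without vehicle replicate 1 (0.0587) or 2 (0.0737) or dosed replicate 1 (0.074) or 3 (0.0644), and under median scaling of the arrays (0.0645). The 1500 mg/kg call was kept without each of the 12 animals. DAM animals had 3175, 4077 and 2913 on basal diet, 3024, 3138 and 3213 at 800 mg/kg and 3083, 2793 and 2621 at 2000 mg/kg, with overlap and no call (-0.10 ± 0.11 and -0.25 ± 0.11).

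For Cyp4f1 the PBO animals had 28314, 31319 and 32309.6 in the vehicle group, 29075, 30219 and 31040.4 at 500 mg/kg, 27836, 23823 and 22810.5 at 1000 mg/kg and 17176, 20315 and 17273 at 1500 mg/kg. The 500 mg/kg animals overlapped the vehicle animals, and those at 1000 and 1500 mg/kg were all below them. Cyp4f1 fell at 1500 mg/kg (-0.75 ± 0.11, adjusted p = 0.000505), a call kept without each of the 12 animals, while the -0.31 ± 0.11 at 1000 mg/kg was not called (0.167). DAM left no call: values were 27957, 30744 and 29406 on basal diet, 29156, 30383 and 27369.9 at 800 mg/kg and 27336, 25591 and 29178 at 2000 mg/kg. The 3 groups overlapped. Cyp4f4, also a Cyp4f enzyme, had 3843, 4616 and 5839 in vehicle animals, 5635, 5278 and 4768 at 500 mg/kg, 5025, 6244 and 6462 at 1000 mg/kg and 5594, 5655 and 3785 at 1500 mg/kg PBO. It had 5798, 5391 and 5540.5 on basal diet, 5445, 5884 and 5652 at 800 mg/kg and 6885, 5896 and 5319.7 at 2000 mg/kg DAM, and all dosed groups overlapped their controls. Cyp4f17 had a positive difference at 1500 mg/kg PBO (0.73 ± 0.27), with dosed animals above vehicle animals but no call (0.0849). It was called without replicate 3 at that dose (0.99, adjusted p = 0.02) and under median scaling (0.84, 0.0481). Cyp4f5 was too dim to test.

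Cyp2u1, a hydroxylase of long-chain fatty acids, had 343, 324 and 401 in vehicle animals, 243, 248 and 183 at 500 mg/kg, 204, 201 and 279.7 at 1000 mg/kg and 199, 83.4 and 272 at 1500 mg/kg PBO. All 9 dosed animals were below the 3 vehicle animals. It fell at 1500 mg/kg (-1.02 ± 0.32, adjusted p = 0.0438), close to the threshold. The call was lost without any of the vehicle animals (0.0966, 0.0819 and 0.132), any of those at 500 mg/kg (0.058, 0.0581 and 0.0523) or 1000 mg/kg (0.0581, 0.0574 and 0.0532), or replicate 2 at 1500 mg/kg, which left a change of -0.57 (0.103). Without replicate 3 it was -1.34 (0.00634), and median scaling gave -0.90 (0.0797). DAM animals had 1144, 1219.6 and 914 on basal diet, 1154, 1015 and 1212 at 800 mg/kg and 1097, 1316 and 1109.5 at 2000 mg/kg, which overlapped, with a difference of 0.11 ± 0.12 at 2000 mg/kg.

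Of the Cyp4a and Cyp4b genes none was called in any dosed group. Cyp4a3, a lauric acid hydroxylase and PPARalpha target, had 12551, 9689.6 and 11506 in vehicle animals, 10106, 12820.2 and 17287 at 500 mg/kg, 16358, 15154 and 17561 at 1000 mg/kg and 14147, 11494 and 25317 at 1500 mg/kg PBO. The animals at 1000 mg/kg were all above the vehicle animals, by 0.55 ± 0.25 (0.315). The highest value belonged to replicate 3 at 1500 mg/kg, where the change was 0.52 ± 0.25 with it (adjusted p = 0.178) and 0.19 without it (0.547). On DAM its signals were 10439, 12373 and 9602 on basal diet, 7718, 10533 and 10009 at 800 mg/kg and 7829, 9293 and 9526 at 2000 mg/kg, where all dosed animals were below controls without a call (-0.28 ± 0.12, 0.175). Cyp4a8 varied 11.1-fold over the 12 PBO animals. Its values were 486, 779 and 479 in vehicle animals, 1263, 1733 and 159 at 500 mg/kg, 223, 262 and 391 at 1000 mg/kg and 1077, 800.1 and 157 at 1500 mg/kg. The 1000 mg/kg animals were all below the vehicle animals, without a call (-0.96 ± 0.77, adjusted p = 0.609), and the other groups overlapped them. DAM animals had 228, 191 and 207 on basal diet, 312, 103 and 295 at 800 mg/kg and 264, 246 and 169.5 at 2000 mg/kg. Cyp4b1 had 392, 348 and 305 in vehicle animals, 447, 469.9 and 423 at 500 mg/kg, 248, 390.5 and 412 at 1000 mg/kg and 224, 301 and 189 at 1500 mg/kg PBO. The 500 mg/kg animals were above and the 1500 mg/kg animals below the vehicle animals, but at 1500 mg/kg the change of -0.54 ± 0.21 was not called (0.104) except without replicate 2 (-0.71, adjusted p = 0.0444). On DAM it had 422, 273 and 366 on basal diet, 332, 334 and 305 at 800 mg/kg and 351, 343 and 370.3 at 2000 mg/kg, which overlapped.

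The retinoic acid hydroxylase Cyp26a1, whose gene retinoic acid itself induces, rose at the highest dose of both compounds. In the PBO study its signals were 258, 312 and 219 in vehicle animals, 263, 276 and 404 at 500 mg/kg, 476, 394 and 381 at 1000 mg/kg and 324, 970.1 and 659 at 1500 mg/kg. The 1000 and 1500 mg/kg animals were all above the vehicle animals, and replicate 1 at 1500 mg/kg lay below the 1000 mg/kg animals. The change at 1500 mg/kg was 1.14 ± 0.31 (adjusted p = 0.0251), and those at 500 and 1000 mg/kg, 0.23 ± 0.31 and 0.64 ± 0.31, were not called. The 1500 mg/kg call was lost without vehicle replicate 1 (1.14, 0.0687) or 3 (1.02, 0.0911), or without dosed replicate 2 (0.79, 0.0769) or 3 (1.07, 0.0502). For DAM, Cyp26a1 had 97.0, 111 and 173 on basal diet, 139.8, 121 and 127 at 800 mg/kg and 267, 342 and 258 at 2000 mg/kg. Only the 2000 mg/kg animals were separated from controls, with a change of 1.12 ± 0.20 (adjusted p = 0.0031, 2.17-fold), kept without each of the 9 animals.

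Cyp26b1, which also breaks down retinoic acid, showed no call. It had 777, 612 and 297 in vehicle animals, 461, 371 and 340.4 at 500 mg/kg, 340.3, 495 and 434 at 1000 mg/kg and 506, 774 and 620.3 at 1500 mg/kg PBO. On DAM it had 312, 512 and 627 on basal diet, 277, 203 and 406 at 800 mg/kg and 441, 897 and 545 at 2000 mg/kg. All dosed groups overlapped their controls. Lrat, which stores retinol as esters and is a marker of stellate cells, fell at both highest doses as given above, and the relation to Cyp26a1 was not tested.

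Of the 20 genes of the xenobiotic-metabolising Cyp2 subfamilies, 16 were bright enough to test. At 1500 mg/kg PBO 0 rose and 4 fell (Cyp2t1, Cyp2c23, Cyp2d3 and Cyp2e1), with a median change of -0.28 (background 8.08% up, 9.26% down). At 2000 mg/kg DAM 2 rose (Cyp2a1 and Cyp2e1) and 2 fell (Cyp2t1 and Cyp2f4), with a median of 0.01 (background 6.22% up, 6.11% down). At each of these doses 25% of the 16 were called, against 17.3% and 12.3% of all probe sets. With so few genes these shares are not told apart. Cyp2e1, which oxidises ethanol and small solvents and is expressed around the central vein, moved in opposite directions. Its signals were 33187, 37660.4 and 44625 in vehicle animals, 39484, 45219 and 45896 at 500 mg/kg, 38748, 34808 and 40078 at 1000 mg/kg and 28741, 29382 and 25749 at 1500 mg/kg PBO. Only the 1500 mg/kg animals were separated from the vehicle animals, all below them. The change was -0.45 ± 0.12 (adjusted p = 0.0204), and it was not called without vehicle replicate 2 (-0.46, 0.0536) or 3 (-0.34, 0.0885) or under median scaling (-0.33, 0.0567). On DAM the signals were 28692, 30519.7 and 29464 on basal diet, 35479, 33295 and 36835 at 800 mg/kg and 41247, 35908 and 37175 at 2000 mg/kg, with both dosed groups wholly above controls. Cyp2e1 rose at 2000 mg/kg (0.36 ± 0.07, adjusted p = 0.00455), and the 0.25 ± 0.07 at 800 mg/kg was not called (0.0722). It was called without replicate 1 at 2000 mg/kg (0.0453) and after quantile normalization (0.20, 0.0212).

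Cyp2t1 had the largest fall of the genes tested at 1500 mg/kg PBO with all animals in the fit. Signals were 2061, 1606 and 2017 in vehicle animals, 1009.8, 1300.4 and 1062 at 500 mg/kg, 718, 804 and 1189.7 at 1000 mg/kg and 523, 523 and 61.2 at 1500 mg/kg. All 9 dosed animals were below the vehicle animals, the 3 at 1500 mg/kg were below all others, and replicate 3 was far below its group. The change at 1500 mg/kg was -2.75 ± 0.55 (adjusted p = 0.00465) with that animal and -1.82 (3.58e-05) without it. At 500 and 1000 mg/kg the changes of -0.74 ± 0.55 and -1.08 ± 0.55 were not called (0.732 and 0.373), but were in the fit without that animal (0.0464 and 0.00203), where the shared estimate of spread is smaller. DAM animals had Cyp2t1 signals of 893, 845 and 816 on basal diet, 710.4, 649 and 672 at 800 mg/kg and 713, 594 and 691 at 2000 mg/kg. Dosed animals were again all below controls, and the fall was called at 2000 mg/kg (-0.35 ± 0.10, 0.0343). That call was lost without any basal-diet animal (0.106, 0.0718 and 0.0535), without dosed replicate 2 (-0.27, 0.139) or 3 (0.0545), and under median scaling (-0.24, 0.186).

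Among the Cyp2d genes, which oxidise many basic drugs, Cyp2d3 fell at 1500 mg/kg PBO. It had 22143, 23814 and 24058 in vehicle animals, 23721, 22881 and 22430.3 at 500 mg/kg, 20362, 20261 and 21189.7 at 1000 mg/kg and 16889, 18539 and 8611 at 1500 mg/kg. The 1000 and 1500 mg/kg animals were all below the vehicle animals, replicate 3 at 1500 mg/kg lowest. The change was -0.74 ± 0.21 (adjusted p = 0.0288), and -0.40 (0.0042) without that replicate, and it was not called without vehicle replicate 1 (0.0625), 2 (0.0791) or 3 (0.0839). DAM animals had 21779, 25150.3 and 23474 on basal diet, 22413, 21564 and 24167 at 800 mg/kg and 23956, 20823 and 21765 at 2000 mg/kg, which overlapped. Cyp2d2 had 33048, 35957 and 38903 in vehicle animals, 42408, 41634 and 46682 at 500 mg/kg, 40986, 36297 and 41495 at 1000 mg/kg and 35643, 37296 and 25276 at 1500 mg/kg PBO, and 26645, 31177 and 27650.5 on basal diet, 30996, 29652 and 30440.3 at 800 mg/kg and 34218, 29962 and 30101 at 2000 mg/kg DAM. The only separated group was that at 500 mg/kg PBO, above vehicle animals, and it was not called (0.28 ± 0.14, adjusted p = 0.543).

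Cyp2d4 has more than 1 probe set, and its brighter one had 1345, 1602 and 1155 in vehicle animals, 1129, 981 and 1014 at 500 mg/kg, 1001, 875 and 875 at 1000 mg/kg and 1039, 1198 and 1107 at 1500 mg/kg PBO. It was lowest at 1000 mg/kg, where the fall was called (-0.56 ± 0.14, adjusted p = 0.0459), and at 1500 mg/kg it overlapped the vehicle animals (-0.28 ± 0.14, 0.182). The call at 1000 mg/kg was lost without vehicle replicate 1 (0.125) or 2 (0.189), any animal at 500 mg/kg (0.0611, 0.068 and 0.0644) or 1000 mg/kg (0.0822, 0.145 and 0.158), or replicate 1 at 1500 mg/kg (0.0529), and under median scaling (-0.44, 0.162). The DAM animals had 2183, 1928 and 1754 on basal diet, 1373, 1481 and 1907 at 800 mg/kg and 1535, 1802 and 1627 at 2000 mg/kg on that probe set, with no call. The dimmer probe set was lower in every dosed group and called at 1000 mg/kg (-0.88 ± 0.21, adjusted p = 0.0408) and 1500 mg/kg PBO (-0.92 ± 0.21, 0.00956) and at 800 mg/kg (-0.57 ± 0.11, 0.0114) and 2000 mg/kg DAM (-0.51 ± 0.11, 0.00844). The probe sets thus disagreed in 3 of these 4 calls, and which transcripts each reads was not tested.

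Cyp2c23, a rat epoxygenase of arachidonic acid grouped here by its subfamily, fell at 1500 mg/kg PBO. Its signals were 26475, 27108 and 33022 in vehicle animals, 27434, 27540.3 and 29002 at 500 mg/kg, 25049.8, 25134 and 27183 at 1000 mg/kg and 19554, 23599.5 and 9443 at 1500 mg/kg. All 3 animals of the highest dose were below the other 9, replicate 3 by most. The change was -0.81 ± 0.25 (adjusted p = 0.0378) and shrank to -0.42 (0.0186) without replicate 3. The call was lost without any vehicle animal (0.0712, 0.0757 and 0.129), any animal at 500 mg/kg (0.0524, 0.0531 and 0.0515) or any at 1000 mg/kg (0.0527, 0.0526 and 0.0527). DAM animals had 23565, 24579.6 and 26106 on basal diet, 23027, 21425 and 23179.7 at 800 mg/kg and 27491, 20932 and 22699.7 at 2000 mg/kg. The differences were -0.13 ± 0.09 at 800 mg/kg, where all dosed animals were below controls, and -0.07 ± 0.09 at 2000 mg/kg, neither called.

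Cyp2f4, which bioactivates naphthalene, fell on DAM. It had 2139.8, 2327 and 2268 on basal diet, 1858, 2001 and 2027 at 800 mg/kg and 1833, 1654 and 1794 at 2000 mg/kg, with both dosed groups wholly below controls. The change at 2000 mg/kg was -0.35 ± 0.08 (adjusted p = 0.00989). The call was lost without dosed replicate 2 (-0.30, 0.0508) and under median scaling (-0.24, 0.112). With PBO it had 3607, 3996 and 3402 in vehicle animals, 2749, 3023 and 2192 at 500 mg/kg, 3016, 2995 and 2561 at 1000 mg/kg and 2413, 2371 and 5556 at 1500 mg/kg. Of the dosed animals only replicate 3 at 1500 mg/kg was above the lowest vehicle animal. The change at 1500 mg/kg was -0.21 ± 0.26 (adjusted p = 0.638) with it and -0.61 (0.00692) without it.

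The male-predominant genes Cyp2c13 and Cyp2a2, both steroid hydroxylases, had their lowest group means at 1500 mg/kg PBO, without a call. Cyp2c13 had 32041, 35367 and 37552 in vehicle animals, 35950.5, 36025 and 38259 at 500 mg/kg, 34765, 32482 and 31814 at 1000 mg/kg and 24950.0, 30959 and 11336 at 1500 mg/kg. All animals at 1500 mg/kg were below the other 9, and the change was -0.76 ± 0.26 (adjusted p = 0.0639), with a call only without replicate 2 (-1.05, 0.00919) or replicate 3 (-0.33, 0.0439). Its DAM signals were 26759, 32235 and 29108 on basal diet, 33792, 31223 and 36577 at 800 mg/kg and 35734, 30483 and 32385 at 2000 mg/kg, with overlap. Cyp2a2 had 17474, 18087 and 21368 in vehicle animals, 22044, 24794 and 21097 at 500 mg/kg, 21239, 22539 and 21128 at 1000 mg/kg and 15226, 18193 and 12791 at 1500 mg/kg PBO, a change of -0.31 ± 0.13 at the last (0.121), which was called without replicate 2 at that dose (-0.44, 0.0287). On DAM it had 18801, 23362 and 18658 on basal diet, 22722, 17790.0 and 19334 at 800 mg/kg and 23112, 19592 and 18576 at 2000 mg/kg. These DAM groups overlapped.

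**Figure D3:**
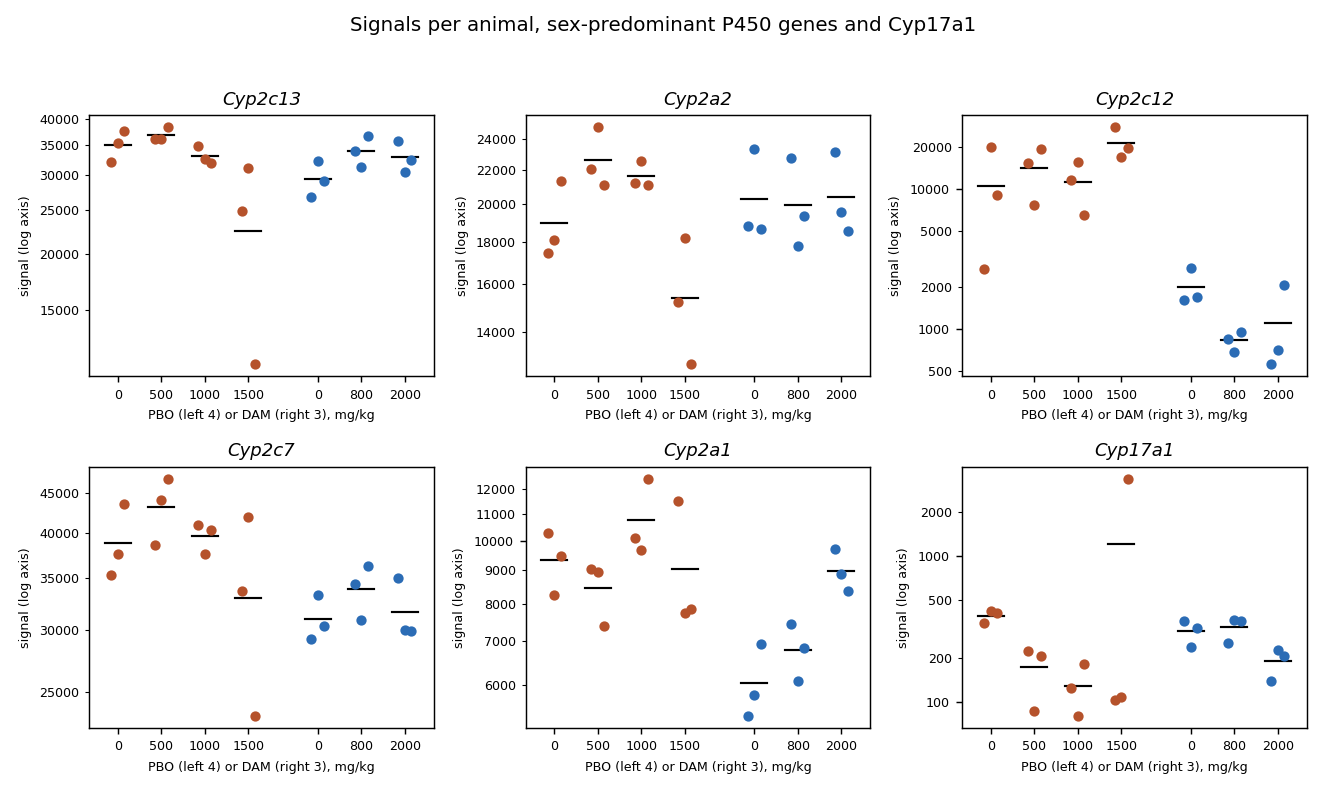
Signal of each animal (points, log axis) and the group mean (bar) for the male-predominant Cyp2c13 and Cyp2a2, the female-predominant Cyp2c12, Cyp2c7 and Cyp2a1, and Cyp17a1, in the PBO (left, brown) and DAM (right, blue) dose groups, 3 animals each. Cyp2c12 spans 2679 to 27677 over PBO animals, and Cyp17a1 reaches 3403 in 1 animal at 1500 mg/kg PBO.

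Of the female-predominant genes, Cyp2a1 rose on DAM. Cyp2a1, a testosterone hydroxylase, had 5374, 5789 and 6941 on basal diet, 7436, 6079 and 6827 at 800 mg/kg and 9721, 8868 and 8372 at 2000 mg/kg. The 2000 mg/kg animals were above all others of the study, with a change of 0.58 ± 0.10 (adjusted p = 0.00294, 1.49-fold), kept without each of the 9 animals. PBO animals had 10271, 8258 and 9456 in the vehicle group, 9052, 8939 and 7389 at 500 mg/kg, 10085, 9682 and 12456 at 1000 mg/kg and 11517, 7745 and 7849.7 at 1500 mg/kg, with overlap at each dose and no call.

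Cyp2c12, the female-predominant hydroxylase of steroid sulfates, varied 10.3-fold among the 12 PBO animals. It had 2679, 19872 and 9045 in vehicle animals, 15405, 7739 and 19435 at 500 mg/kg, 11530.3, 15719 and 6498 at 1000 mg/kg and 27677, 16957 and 19506 at 1500 mg/kg PBO. The vehicle group alone held the lowest and the second highest value of the 12, and the change of 1.41 ± 0.58 at 1500 mg/kg was not called (0.112) except without vehicle replicate 2 (2.08, 0.0226). Cyp2c12 signals on DAM were 1622, 2709 and 1699 on basal diet, 851, 686 and 949 at 800 mg/kg and 558, 706 and 2051 at 2000 mg/kg. The 800 mg/kg animals were all below controls, and at 2000 mg/kg replicate 3 overlapped them. Neither change was called, -1.23 ± 0.37 at 800 mg/kg (0.0921) and -1.05 ± 0.37 at 2000 mg/kg (0.0833), but both were without that replicate (-1.24 with 0.00355, and -1.61 with 0.00057).

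Cyp2c7, higher in female than in male rat liver, had 35314, 37558 and 43580.0 in vehicle animals, 38505, 44066 and 46912 at 500 mg/kg, 40879, 37572 and 40294 at 1000 mg/kg and 33697, 41892 and 23279 at 1500 mg/kg PBO. On DAM it had 29222, 33246 and 30381 on basal diet, 34361, 30938 and 36266 at 800 mg/kg and 35007, 30022 and 29928 at 2000 mg/kg. Every dosed group overlapped its controls. Cyp2c6v1 had 35899, 31403 and 38488 in vehicle animals, 42332, 45396 and 45637 at 500 mg/kg, 41123, 40084 and 42955 at 1000 mg/kg and 39106, 45251 and 33998 at 1500 mg/kg PBO, and 31194, 34256 and 32569 on basal diet, 36542, 34826 and 37854 at 800 mg/kg and 41264, 34668 and 35462 at 2000 mg/kg DAM. Its animals at 500 and 1000 mg/kg PBO and at both DAM doses were all above controls, by 0.34, 0.24, 0.16 and 0.18, and none was called. The probe sets of Cyp2c13, Cyp2c6v1 and Cyp2j3 are of kinds that can read several transcripts, and cross-hybridisation between close Cyp2 relatives is uncertain.

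Cyp2b3, the bright Cyp2b gene among the 45 and not known for induction by phenobarbital, had 29794, 29682 and 35268 in vehicle animals, 30341, 33219.8 and 31985 at 500 mg/kg, 35029, 29478 and 32034 at 1000 mg/kg and 29019, 30009 and 12653 at 1500 mg/kg PBO. Replicate 3 at 1500 mg/kg was far below the other 11, and the change was -0.50 ± 0.25 with it (0.191) and -0.09 (0.595) without it. DAM animals had 25088, 27303 and 25167 on basal diet, 27884, 26614 and 30364 at 800 mg/kg and 28192, 25522 and 26619 at 2000 mg/kg, which overlapped. Cyp2c22 and Cyp2s1 had no call in any dosed group, with changes of -0.12 and 0.48 at 1500 mg/kg PBO and 0.01 and -0.03 at 2000 mg/kg DAM. Cyp2a3, Cyp2b12, Cyp2b21 and Cyp2g1 were too dim to test. Cyp2a3, known from lung and nasal tissue, had 5.11, 32.4 and 39.5 in vehicle animals, 78.7, 20.6 and 36.3 at 500 mg/kg, 26.2, 40.3 and 61.3 at 1000 mg/kg and 53.7, 22.1 and 46.7 at 1500 mg/kg PBO, and 35.7, 3.42 and 25.6 on basal diet, 4.59, 38.1 and 5.22 at 800 mg/kg and 15.2, 5.20 and 36.7 at 2000 mg/kg DAM.

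Of the 5 steroid hormone genes only Cyp17a1, the hydroxylase and lyase on the way to androgens, was bright enough to test. It had 349, 417 and 404 in vehicle animals, 223, 86.1 and 207 at 500 mg/kg, 124, 79.8 and 182 at 1000 mg/kg and 102, 108 and 3403 at 1500 mg/kg PBO. Of the 9 dosed animals, 8 were below all vehicle animals, and replicate 3 at 1500 mg/kg was above them. With that animal in the fit no change was called (-1.20 ± 0.95, -1.55 ± 0.95 and -0.14 ± 0.95 along the doses, adjusted p of 0.754, 0.475 and 0.939). Without it the changes were -1.20 (0.0848) at 500 mg/kg, -1.55 (0.0106) at 1000 mg/kg and -1.75 (0.00496) at 1500 mg/kg. In the DAM study it had 358, 236 and 320.1 on basal diet, 254, 362 and 358 at 800 mg/kg and 139, 227 and 204 at 2000 mg/kg. The 2000 mg/kg animals were below controls, without a call (-0.64 ± 0.21, 0.0632). The change was called without basal-diet replicate 2 (-0.81, 0.0372) and with a 60th percentile filter (-0.64, 0.0497).

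Of the 3 oxysterol and bile acid genes, Cyp39a1, an oxysterol hydroxylase, had 1499.6, 1628 and 1568 in vehicle animals, 1786, 1721 and 1647 at 500 mg/kg, 2233, 1760.2 and 1844 at 1000 mg/kg and 1644, 1585 and 1024 at 1500 mg/kg PBO. On DAM it had 4089, 3841 and 5022 on basal diet, 3405, 3960.3 and 4189 at 800 mg/kg and 4579, 4411 and 4365 at 2000 mg/kg. Animals at 500 and 1000 mg/kg PBO were above the vehicle animals, and no dose was called. Cyp7b1, which hydroxylates oxysterols in the other pathway of bile acid synthesis, was dim, with 84.3, 64.7 and 101 in vehicle animals, 30.6, 72.1 and 70.3 at 500 mg/kg, 40.1, 64.6 and 28.6 at 1000 mg/kg and 82.8, 55.3 and 69.7 at 1500 mg/kg PBO, and 57.5, 21.6 and 44.9 on basal diet, 31.1, 21.7 and 12.8 at 800 mg/kg and 28.5, 27.8 and 34.9 at 2000 mg/kg DAM. It was tested only in the PBO study, with no call. Cyp46a1, a cholesterol hydroxylase of brain, was too dim to test.

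Cyp27b1, which activates vitamin D mainly in kidney, had 136, 60.9 and 63.4 in vehicle animals, 38.8, 48.5 and 87.1 at 500 mg/kg, 74.5, 51.8 and 73.2 at 1000 mg/kg and 66.5, 42.2 and 84.3 at 1500 mg/kg PBO and 36.9, 37.1 and 43.5 on basal diet, 41.8, 40.8 and 71.3 at 800 mg/kg and 5.54, 40.9 and 59.3 at 2000 mg/kg DAM, with no call where tested. Cyp20a1, whose role is left unassigned, ranged from 961 to 1603 over all 21 animals without a call. The 10 genes below the filter in every fit (Cyp2a3, Cyp2b12, Cyp2b21, Cyp2g1, Cyp4f5, Cyp11a1, Cyp11b1, Cyp19a1, Cyp21a1 and Cyp46a1) had signals of 2.09 to 168 with a median of 27.4, and a change in them could not be measured at this brightness.

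Along the 4 PBO doses, 3 of the 35 genes rose and 6 fell in a linear trend (background 7.92% up, 8.84% down, 16.8% in all), given here per step of 500 mg/kg. Cyp2j4 (0.44 ± 0.11, adjusted p = 0.0116), Cyp26a1 (0.38 ± 0.09, 0.0123) and Cyp4f17 (0.26 ± 0.08, 0.0399) rose with dose. Cyp2t1 (-0.86 ± 0.18, 0.00444), Cyp4f6 (-0.36 ± 0.05, 0.000379), Cyp4f1 (-0.25 ± 0.04, 0.000839), Cyp2u1 (-0.30 ± 0.10, 0.0481), Cyp2c23 (-0.26 ± 0.08, 0.0462) and Cyp2d3 (-0.24 ± 0.07, 0.0325) fell with dose. The trends of Cyp2j4, Cyp26a1, Cyp2t1, Cyp4f1 and Cyp4f6 were called without each of the 12 animals. Those of Cyp2u1, Cyp2c23, Cyp2d3 and Cyp4f17 were each lost without at least 2 of the animals, with adjusted p up to 0.137, 0.106, 0.0607 and 0.111. Without replicate 3 at 1500 mg/kg 11 genes were called (16.3% of all probe sets), Cyp17a1 (-0.59, 0.00436) and Cyp2f4 (-0.17, 0.0295) joining the fallers. The slopes of Cyp2c23 (-0.13), Cyp2d3 (-0.13) and Cyp2t1 (-0.57) were then smaller, and all 3 were called. Cyp2e1 was called without vehicle replicate 1 or 1000 mg/kg replicate 3 (adjusted p of 0.0158 and 0.0463), as it was with a 60th percentile filter (0.0406) and after quantile normalization (0.0336), and Cyp4a3 without replicate 2 at 1500 mg/kg (0.0284). For Cyp2j4, the mean was 2841 ± 989 in vehicle animals, 7041 ± 562 at 500 mg/kg, 5984 ± 131 at 1000 mg/kg and 8373 ± 3048 at 1500 mg/kg (SD), so most of its rise was present at the lowest dose. For Cyp4f1 the means were 30648 ± 2080.5, 30111 ± 987, 24823 ± 2658 and 18254 ± 1785 in the same order, with the fall above 500 mg/kg.

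The effects of the highest doses were set against each other in a fit of all 21 arrays, as the PBO 1500 mg/kg effect minus the DAM 2000 mg/kg effect. Compound, dose, route, duration, strain and storage all differ between the studies, and their parts in these differences cannot be told apart. Of the 34 genes tested, Cyp4v3 and Cyp27b1 were below the filter in the fits of the DAM study alone. Among the 34, 0 had the higher value for PBO and 4 the lower (background 2.14% and 2.77%, 4.91% in all). They were Cyp2e1 (-0.82 ± 0.14, adjusted p = 0.00247), Cyp4f1 (-0.65 ± 0.13, 0.00677), Cyp4f6 (-0.94 ± 0.19, 0.00728) and Cyp2t1 (-2.40 ± 0.64, 0.0354). The first 3 were called without each of the 21 animals. The Cyp2t1 difference was lost without any 1 of the vehicle, basal-diet or 2000 mg/kg DAM animals (adjusted p of 0.0502 to 0.082), and was -1.47 (0.000431) without replicate 3 at 1500 mg/kg PBO. The difference for Cyp26a1 was smaller than its error (0.02 ± 0.40, 0.983). That for Cyp2j4 (0.88 ± 0.28) missed the threshold (0.0793) and was called without vehicle replicate 2 (1.15, 0.0144) or replicate 2 at 1500 mg/kg (1.06, 0.0233). Leaving out that 1500 mg/kg replicate 2 gave 9 genes called, where 7.65% of all probe sets were called against 4.91% with all animals. The 9 included Cyp2c13 (-1.22), Cyp2c23 (-1.01), Cyp2d3 (-0.87) and Cyp4a3 (1.04). Other differences called when 1 animal was left out were Cyp2c13 (-0.49) and Cyp2u1 (-1.45) without replicate 3 at that dose, Cyp2a1 (-0.83) without replicate 1, and Cyp2c12 without vehicle replicate 2 (3.14) or 2000 mg/kg DAM replicate 3 (3.03). With array weights Cyp2u1 (-1.27) and Cyp2c12 (2.75) were called too.

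**Figure D4:**
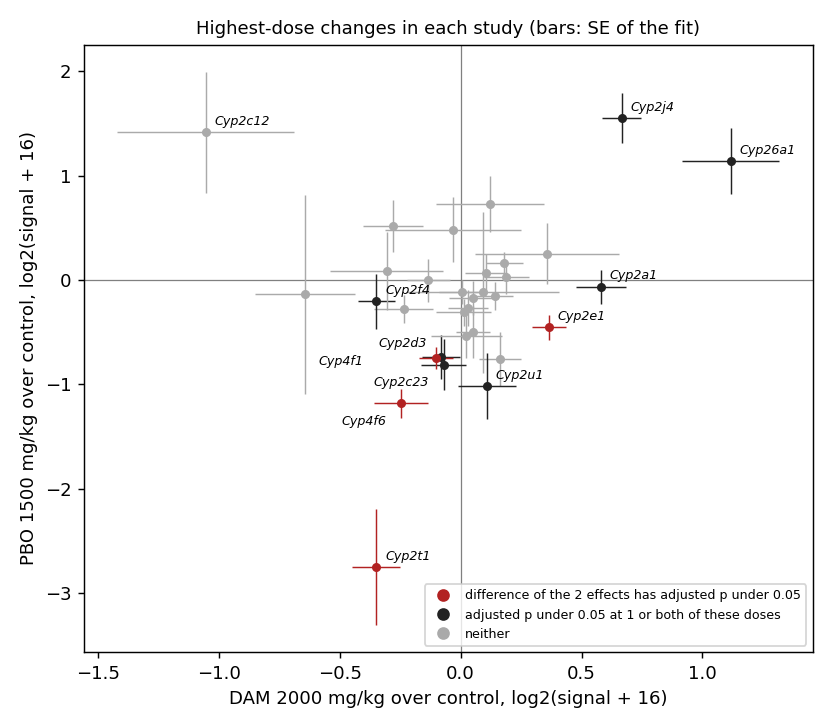
Change of each gene tested in both studies at 1500 mg/kg PBO (vertical) against 2000 mg/kg DAM (horizontal), each over the control of its own study on the log2(signal + 16) scale, with bars for the standard error. Red points are the 4 genes whose effects differed between the studies, black points other genes called at either dose, and Cyp2j4 and Cyp26a1 lie high in both.

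Undosed PBO-study animals and undosed DAM-study animals differed in 12 of 34 genes (35.3%), close to the background of 33.1%. The 12 include Cyp4v3, whose call carries no weight for the reason given below. Strain, vehicle or diet, storage and array run cannot be told apart here. Of the 12, 9 were higher in the PBO study (background 18.2%) and 3 lower (14.9%). One of the 9 was Cyp4v3, the rat relative of the human fatty acid hydroxylase CYP4V2, with 5445, 4698 and 6133 in vehicle animals of the PBO study and 49.2, 31.0 and 31.4 in basal-diet animals of the DAM study (6.68 ± 0.33). This probe set passed the filter of the 21-array fit only through the PBO-study arrays. Its p-value is therefore not given, and its call adds nothing to the signals themselves. The dosed animals followed their study: those on PBO had 6225, 6122 and 5878 at 500 mg/kg, 6231, 6585 and 7090.1 at 1000 mg/kg and 5400.3, 6022 and 3346 at 1500 mg/kg, and those on DAM 50.5, 8.71 and 39.4 at 800 mg/kg and 7.43, 43.7 and 39.7 at 2000 mg/kg. All 12 PBO-study animals thus exceeded all 9 DAM-study animals, where the probe set was too dim to test for dose. A dimmer probe set of the gene had 287, 185 and 356 in vehicle animals of the PBO study and 152, 37.8 and 129.5 in basal-diet animals of the DAM study, a difference of 1.37 ± 0.38 (adjusted p = 0.00865). The brighter probe set was dim in the DAM study, so the size depends on the constant added before taking logs (7.17 with 1 added). Both probe sets were higher in the PBO study, by different sizes.

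**Figure D5:**
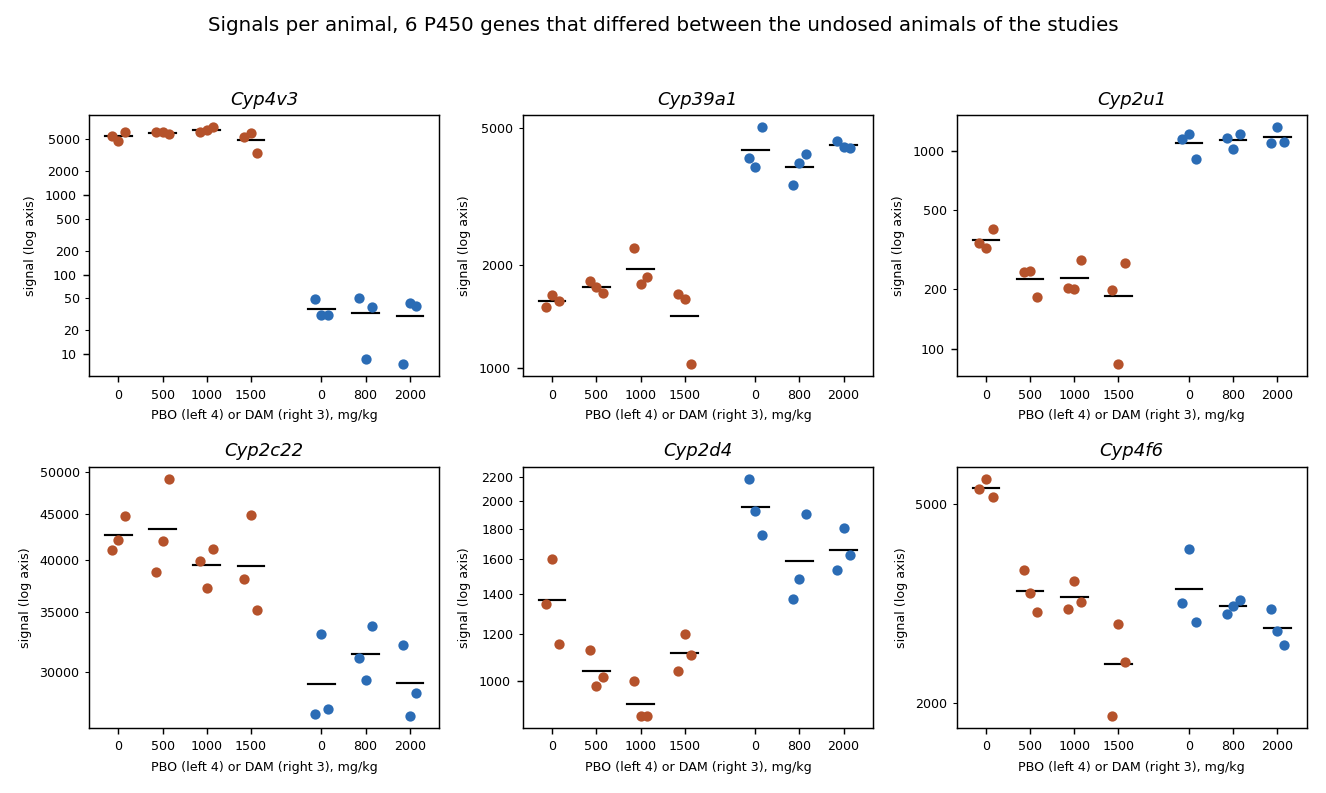
Signal of each animal (points, log axis) and the group mean (bar) for 6 P450 genes whose level differed between undosed animals of the PBO study (left, brown) and of the DAM study (right, blue), with the dosed groups of each. Cyp4v3 is at 3346 or more in all 12 PBO-study animals and at 50.5 or less in all 9 DAM-study animals.

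Cyp2c12 (2.00 ± 0.55, adjusted p = 0.00852), Cyp26a1 (0.99 ± 0.28, 0.0114), Cyp2f4 (0.70 ± 0.21, 0.015), Cyp4f6 (0.68 ± 0.13, 0.000614), Cyp2a1 (0.63 ± 0.15, 0.0026), Cyp2c22 (0.55 ± 0.11, 0.000646), Cyp2e1 (0.37 ± 0.10, 0.00799) and Cyp2d2 (0.34 ± 0.12, 0.0342) were also higher in undosed animals of the PBO study. Cyp2u1 (-1.57 ± 0.26, 0.000104), Cyp39a1 (-1.45 ± 0.15, 2.7e-07) and Cyp2d4 (-0.52 ± 0.13, 0.00552) were lower there. Cyp39a1 ranged from 1024 to 2233 over the PBO study and from 3405 to 5022 over the DAM study, with no overlap between the studies. The calls of Cyp2c12 and Cyp2f4 were lost without vehicle replicate 2 (1.33, 0.0688, and 0.64, 0.0563), that of Cyp26a1 without vehicle replicate 2 (0.0521) or basal-diet replicate 1 (0.0595), that of Cyp2e1 without vehicle replicate 3 (0.26, 0.0626), and that of Cyp2d2 without vehicle replicate 2 (0.0756) or 3 (0.129) or basal-diet replicate 1 (0.121) or 3 (0.0923). Scaling each array to a common median moved the median of all probe sets in this comparison to -0.33, against 0.05 without it. Under it 44.5% of all probe sets were called, and 2 genes were higher and 9 lower in the PBO study. Cyp2c12, Cyp2u1, Cyp39a1 and Cyp2d4 kept direction and call. Cyp4v3 was the other gene called as higher, and that call again adds nothing to its signals. Cyp26a1, Cyp2f4, Cyp4f6, Cyp2a1 and Cyp2c22 kept direction without a call, and Cyp2e1 (-0.02) and Cyp2d2 (-0.06) turned. Cyp20a1, Cyp2a2, Cyp2c6v1, Cyp2j3, Cyp4f1 and Cyp4f4 were then called as lower. Without replicate 3 at 1500 mg/kg PBO 17 genes were called, where 38.8% of all probe sets were, Cyp2t1 (1.13), Cyp2b3 (0.28), Cyp2c13 (0.25) and Cyp2c7 (0.32) joining the higher and Cyp2j3 (-0.39) the lower. Without other single PBO-dosed animals Cyp2t1 (1.13, replicate 1 or 2 at 1500 mg/kg), Cyp2c7 (0.32, replicate 2 at 1500 mg/kg) and Cyp4a8 (1.38, replicate 3 at 500 mg/kg) were also called.

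The genes that serve or control P450s moved as follows. Of the 25 listed, 23 had a probe set. At 1500 mg/kg PBO 4 of 21 tested rose and 1 fell (background 8.08% up, 9.26% down, 17.3% in all). With so few genes these shares are not told apart. P450 reductase, Por (2.21 ± 0.30, adjusted p = 0.000404), the first haem synthesis enzyme Alas1 (1.88 ± 0.35, 0.00309), haem oxygenase Hmox1 (1.97 ± 0.33, 0.0014) and the receptor Ahr (1.49 ± 0.42, 0.0265) rose. The liver transcription factor Hnf4a fell (-0.59 ± 0.14, 0.0106). Without replicate 3 at that dose the Ahr change was not called (1.31, 0.0670), and Cyb5a (0.36, 0.0172) and Cyb5r3 (0.53, 0.0104) were. Por had 6433, 4121 and 12409.6 at 1500 mg/kg PBO, against 1353, 1682 and 1411 in vehicle animals. Ahr was dim, with 242, 114 and 249 at 1500 mg/kg PBO and 85.2, 66.7 and 31.9 in vehicle animals. At 1000 mg/kg Por (1.28 ± 0.30) and Ahr (1.87 ± 0.42) rose and 0 fell (background 1.88% up, 1.23% down). At 500 mg/kg none was called (background 0.478% in all). At 2000 mg/kg DAM 5 of 20 tested rose and 4 fell (background 6.22% up, 6.11% down, 12.3% in all). Por (0.82 ± 0.13), the electron donors Cyb5a (0.32 ± 0.07) and Fdx1 (0.39 ± 0.10), the haem enzyme Fech (0.22 ± 0.06) and the transcription factor Onecut1 (1.68 ± 0.33) rose.

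Hnf4a (-0.34 ± 0.07), the bile acid receptor Nr1h4 (-0.46 ± 0.09) and the repressors Nr0b2 (-2.58 ± 0.19) and Bcl6 (-3.83 ± 0.38) fell at 2000 mg/kg DAM. Bcl6 is known to act in the sex-dependent pattern of liver genes. It had 254, 199 and 343 at 2000 mg/kg DAM, against 1653, 5542 and 6439.6 on basal diet. All 3 animals at 2000 mg/kg were below the controls. At 800 mg/kg DAM Por (0.77 ± 0.13) and Alas1 (0.79 ± 0.13) rose and 0 fell (background 2.16% up, 1.62% down). The receptors that mediate induction of Cyp2b and Cyp3a genes, Nr1i3 and Nr1i2, were not called in any dosed group, with changes of -0.17 ± 0.20 and 0.15 ± 0.15 at 1500 mg/kg PBO and 0.30 ± 0.17 and -0.02 ± 0.11 at 2000 mg/kg DAM.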

How the data were processed

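Liver RNA of 21 rats was measured on Affymetrix arrays, 1 per animal, with replicates that the labels call biological. The values deposited by the authors are MAS5 signal intensities, per the submitters' processing notes, with the version not given in the sources used here, and each array's mean after trimming 2% at each end was near 500.2. From these intensities, log2(signal + 16) was fitted with limma 3.58.1 in R 4.3.3 (group means, empirical Bayes with intensity trend), separately for the 12 PBO arrays, the 9 DAM arrays and all 21. Control probe sets (57 of 31099) and those with a mean at or below the 40th percentile were left out, and p-values were adjusted by Benjamini-Hochberg over the 18625 probe sets tested. The mean ± SD is of signals, and a change ± SE is of the fit, with 3 animals per group.

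All 45 genes could be named. Signals of every animal are given for genes called at a highest dose with dosed and control animals not overlapping, and for a list of Cyp2, Cyp4 and other P450s of known role. The members and the lists of roles, pathway genes and cell markers were chosen with earlier results of these data known. T cell and B cell markers were mostly too dim: 1 of 3 T cell markers was tested in the DAM study, with 0 called, and 0 B cell markers. The procedure was tested on simulated data with known changes. Alternatives were other added constants, filters and scalings, no intensity trend, array weights, a replicate block, single animals left out, 2 groups only and the second probe set.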

Additional observations from a re-analysis of the deposited data

Results flagged for a closer look

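The effect of the highest dose differed between the studies for 4 genes, tested as PBO 1500 mg/kg effect minus DAM 2000 mg/kg effect in the limma fit of 21 arrays. Cyp2e1 had a difference of -0.8171, and its effects had opposite directions, lower in all 3 PBO animals and higher in all 3 DAM animals than in their own controls. Cyp2t1 had a difference of -2.402, with a fall in both studies, and this call was lost when single vehicle, basal-diet or 2000 mg/kg DAM animals were left out. Cyp4f6 differed by -0.9379 and Cyp4f1 by -0.6465, with a fall called at 1500 mg/kg PBO and no call on DAM.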

How the results depend on the processing

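Of 6293 comparisons of a gene's result with its value under an alternative, 6036 stayed on their side of the threshold, 171 lost a call and 82 gained 1. Uncalled results changed sign in 252 of the 6036 (Cyp17a1 at 1500 mg/kg PBO was -0.1384, and 0.6837 without replicate 1). The other 4, called with 1 of the 2 settings, turned: Cyp2c6v1 (-0.2888), Cyp2d2 (-0.05859), Cyp2e1 (-0.02424) and Cyp4f1 (-0.3345), all in undosed animals under median scaling, which moved the median of all probe sets there. Leaving out 1 animal gave 0 to 3 genes called at 500 mg/kg PBO, 0 to 5 at 1000 mg/kg, 4 to 12 at 1500 mg/kg, 0 to 2 at 800 mg/kg DAM, 4 to 6 at 2000 mg/kg DAM, 5 to 11 for the PBO trend, 3 to 9 for the difference between the highest doses and 8 to 17 between undosed animals. The share of all probe sets called was then 0.279% to 1.99%, 1.37% to 7.77% and 10.9% to 17.8% along the PBO doses. With all animals it was 12.3% at 2000 mg/kg DAM, 16.8% for the trend, 4.91% for the difference and 33.1% between undosed animals. Without the intensity trend 0, 0, 5 and 0 genes were called at 500, 1000 and 1500 mg/kg PBO and 800 mg/kg DAM. Of all probe sets, 0.242%, 1.61%, 14.4% and 1.26% were then called. With only the arrays of both groups the counts of genes were 3, 7, 4 and 2 in the same order, where 1.44%, 7.36%, 8.32% and 3.48% of all probe sets were called. The shares in the main fits were 0.478%, 3.12%, 17.3% and 3.79%. At 500 mg/kg PBO the 60th percentile filter, quantile normalization and array weights each gave 2, where 0.83%, 0.478% and 1.87% of all probe sets were called. Quantile normalization (4.12% of all probe sets) and the second probe set each gave 2 at 800 mg/kg DAM. Median scaling gave 1 at 1000 mg/kg PBO (3.69% of all probe sets), and no filter gave 5 for the trend, where the main fit called 16.8% of all probe sets. The causes were not tested.

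Replicate numbers did not pair the animals: correlations of same-numbered deviations were -0.0718 to 0.0341 over 18 PBO pairs and -0.0621 to 0.104 over 9 DAM pairs. With the replicate block the counts were 1, 2 and 8 along the PBO doses, 1 and 6 along the DAM doses, 8 for the trend, 3 for the difference of effects and 7 for undosed animals. Under it 0.467%, 2.55% and 16.1% of all probe sets were called along the PBO doses and 3.38% at 800 mg/kg DAM. Without the block the shares were 12.3% at 2000 mg/kg DAM, 16.8% for the trend, 4.91% for the difference of effects and 33.1% for undosed animals. With 3 animals per group, small changes and those of dim genes could not be resolved, and 10 genes were too dim to test. The fit of the marker and pathway genes without replicate 3 at 1500 mg/kg PBO was chosen after seeing the data.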
